A study of Mus musculus with 4 samples.

Results

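The G2/M-high NIH/3T3 cells were the 266 of 1775 cells of this mouse embryonic fibroblast line that devoted the largest share of their transcripts to 12 mitotic genes. The share was the number of UMIs (unique molecular identifiers, each standing for 1 captured transcript) summed over Top2a, Mki67, Cenpf, Tpx2, Ube2c, Nusap1, Cdk1, Kif11, Aurkb, Birc5, Hmmr and Cenpe, divided by all UMIs of the cell. The highest 15% of cells by this score were taken as members, and the 887 cells of the lowest 50% served as the comparison. The 622 cells between them are called the middle cells. Cells had at least 2000 UMIs and at most 20% of UMIs from mitochondrially encoded genes, which 1775 of the 1783 barcodes with enough UMIs met.

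The series measured single-cell RNA with CapSeq, in which cells receive their barcode in successive rounds of combinatorial indexing, from a single experiment on 3 mouse lines. NIH/3T3 fibroblasts and Neuro-2a neuroblastoma cells (N2a) were cultured in DMEM with serum. E14TG2a embryonic stem cells (mESC) were also kept in DMEM with serum, but on gelatin and with LIF, CHIR99021 and PD0325901. The first barcode round (BC1) separated the lines, and 32 BC1 sequences marked the NIH/3T3 cells. The 3 lines gave 5706 cells that passed the same limits. The matrices of the lines were split by BC1, which is part of each barcode, so they could share no barcode (0 barcodes). No drug, sorting or synchronization is given for the NIH/3T3 cells, a line of immortalized cells, and 1 culture and 1 library represented it. Differences between groups of cells are therefore given as levels and ratios with 95% intervals that cover counting error alone, and no test across cultures was possible.

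Proliferating cells copy their DNA in S phase and then, through G2, build up the cyclins, kinases, motor proteins and kinetochore parts that they need to divide. Many of these genes are transcribed late in the cycle under the control of the MuvB complex together with MYBL2 and FOXM1, and many of their proteins are destroyed after mitosis by the anaphase-promoting complex (APC/C). The genes that license and start DNA replication, such as the E-type cyclins and Cdc6, are driven earlier, by E2F factors at the G1/S boundary.

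The cells were well covered in each group. The members held a total of 1895535 UMIs, with a median of 6025 UMIs per cell (lower and upper quartiles 3821 and 9004.5), against 5299 (quartiles 3523.5 and 7503.5) in the low-score cells, which held 5380360. When 2000 UMIs were drawn at random from every cell, the median number of genes detected was 1439.5 in members and 1419 in low-score cells. The members thus had 1.14 times the UMIs per cell, but close to the same number of genes at equal depth. Mitochondrial genes took a median of 2.43% and 2.46% of UMIs, and ribosomal protein genes 8.83% and 10.0%.

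The members were chosen by the UMIs of the 12 score genes, so these values are given as a description. A median member carried 51 UMIs of the 12 genes, or 0.821% of its transcripts, against 5 UMIs and 0.117% in low-score cells. At 2000 UMIs a median of 8 of the 12 genes had a UMI in members, 5 in middle cells and 2 in low-score cells. The score had no gap at the threshold. The lowest member had 62 score UMIs among 9229 (0.672%), and the highest cell outside had 61 among 9084, which rounds to the same percentage. Within 10% of the threshold lay 57 members and 62 other cells. The rule cut the score at a fixed share of cells, and whether the members form a separate cell type was not tested. The comparison group ended at 0.247%, where its highest cell had 18 score UMIs among 7273, and 50 of its cells had no score UMI at all.

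The 3 marker genes were among the score genes, and their levels in CPM (UMIs of a gene per 1000000 UMIs, both summed over the cells of a group) follow from the choice. Top2a, the topoisomerase that untangles sister chromatids, stood at 2252 CPM in members, 1233 in middle cells and 375 in low-score cells. Mki67, a coat protein of mitotic chromosomes, stood at 1339, 858 and 288 CPM. Cenpf, a protein of the outer kinetochore, stood at 897, 288 and 38.7 CPM. The score genes were not graded alike. Cenpf was 23.2 times and Nusap1, a spindle microtubule protein, 27.7 times higher in members, whereas Mki67 was 4.65 times and Birc5, which encodes survivin, 3.37 times higher. Top2a supplied 26.9% of the score UMIs of members and 30.7% of those of low-score cells, while Cenpf supplied 3.17% in low-score cells and 10.7% in members. When only the first 6 score genes chose the members, the other 6 were still 5.45 times higher, and when the last 6 chose them, the first 6 were 5.07 times higher. When a random 50% of UMIs chose the members and the rest were measured, the 12 genes were 5.68 times higher, against 6.86 times without the split. Against the lowest 25% of cells the same ratio was 14.2.

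Across the 7478 genes outside the score with at least 20 CPM over all NIH/3T3 cells, 293 (3.92%) were at least 1.5-fold higher in members and 148 (1.98%) at least 1.5-fold lower, on the scale of CPM plus 5. At 2-fold the counts were 143 and 11, and at 4-fold 44 and 1. Genes of mitosis were most frequent among the largest folds. Of the 12 genes with the largest fold, 10 belonged to the lists of mitotic entry and exit, kinetochore, spindle and cytokinesis, or condensin, lamina and chromatin genes, and so did 39 of the 50 largest and 90 of the 293, while the other 203 higher genes lay outside these lists. The 4 lists made up 104 (1.39%) of the genes compared. None of the 39 genes of the S phase list that were compared was among the 293 (0 genes), and 10 of them were among the 148 lower genes. The limit of 20 CPM was taken over all cells, so a gene could pass it through the members or middle cells alone. Among the 12 largest folds, Aurka (19.7 CPM), Plk1, Kif14, Prr11, Ccnf and Cenpl (4.46 CPM) had under 20 CPM in low-score cells. How many of the 293 did so was not counted. The members were chosen in these same cells, so these counts describe the choice and are not a test of it.

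**Figure D1:**
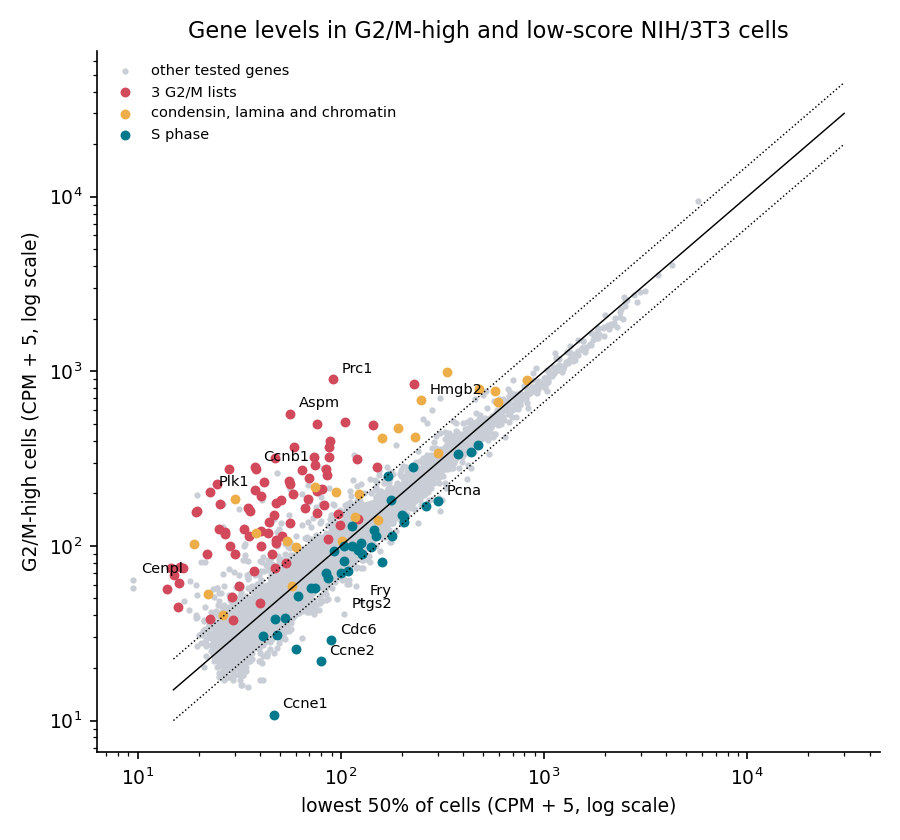
Level of each of the 7478 genes in G2/M-high cells (vertical axis) and in the lowest 50% of NIH/3T3 cells (horizontal axis), both as CPM plus 5 on log scales, with the solid line at equality and dotted lines at 1.5-fold. Genes of the 3 G2/M lists lie above the diagonal, with Aspm and Prc1 far from it, and S phase genes such as Ccne1 and Cdc6 lie below it.

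Among the 12 genes with the largest fold were genes of the spindle, of mitotic entry and of the kinetochore. Aspm (ENSMUSG00000033952, chr1:139382486-139421829 in GRCm39), which organizes microtubules at the spindle poles, stood at 568 CPM in members, 244 in middle cells and 51.3 in low-score cells, a ratio of 11.1 (95% counting interval 9.70 to 12.7). Prc1 (chr7:79944168-79966011), the microtubule bundler of the central spindle, stood at 899, 380.5 and 86.6 CPM, a ratio of 10.4 (9.36 to 11.5). Gas2l3 (chr10:89244685-89279829), which links actin and microtubules, stood at 271, 107 and 23.2 CPM, a ratio of 11.7 (9.58 to 14.3). Each of the 3 was higher in members within all 32 BC1 sequences, and the middle cells lay between the other groups each time. Prr11, a gene outside the lists and the second by fold, stood at 191, 95.0 and 14.5 CPM. The rest of the 12 largest were Aurka, Plk1, Ccnf, Kif14, Ccnb1, Ckap2l, Kif2c and Cenpl, an inner kinetochore gene with 59.1 CPM in members and 4.46 in low-score cells. Prc1 overlaps Rccd1, and Cenpl another gene, on the opposite strand.

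Their upstream sequences are shown because genes that peak in G2/M often carry CCAAT boxes, bound by NF-Y, and the cell cycle genes homology region, bound by MuvB, for which TTTGAA as well as TTCGAA and TTTAAA were searched. Capitals mark CCAAT, read as ATTGG when it is on the other strand, and these 3 motifs, each searched on both strands. The sequences run 5′ to 3′ on the strand of the gene, in GRCm39, up to the base before the start of the Ensembl canonical transcript in GENCODE M39. For Prc1 they stop 19 bases earlier, where an untranslated exon of another of its transcripts begins.
Aspm (chr1:139382236-139382485, + strand): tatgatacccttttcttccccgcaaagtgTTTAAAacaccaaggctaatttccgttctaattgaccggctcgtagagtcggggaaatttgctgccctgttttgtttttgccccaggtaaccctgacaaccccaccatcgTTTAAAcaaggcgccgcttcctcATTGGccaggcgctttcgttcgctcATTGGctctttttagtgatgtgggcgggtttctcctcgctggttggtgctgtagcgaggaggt
Prc1 (chr7:79943937-79944167, + strand): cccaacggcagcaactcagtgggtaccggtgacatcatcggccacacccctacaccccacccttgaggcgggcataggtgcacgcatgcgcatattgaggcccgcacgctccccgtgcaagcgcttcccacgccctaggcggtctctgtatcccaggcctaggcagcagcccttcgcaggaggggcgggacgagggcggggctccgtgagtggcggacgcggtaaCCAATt
Gas2l3 (chr10:89279830-89280079, - strand): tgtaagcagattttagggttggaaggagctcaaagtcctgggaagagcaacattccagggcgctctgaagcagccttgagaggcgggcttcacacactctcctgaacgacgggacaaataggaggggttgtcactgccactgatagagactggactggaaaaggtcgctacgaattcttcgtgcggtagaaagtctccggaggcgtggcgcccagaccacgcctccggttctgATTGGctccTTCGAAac
Upstream of Aspm there were CCAAT matches at 88 to 84 and 63 to 59 bases before the start, both on the other strand, and TTTAAA at 221 to 216 and 111 to 106. Prc1 had 1 CCAAT at 25 to 21 bases before the start. Gas2l3 had CCAAT at 17 to 13 bases, on the other strand, and TTCGAA at 8 to 3. The window of Aurka, the next gene of these lists by fold, lies wholly within annotated untranslated exons and held none of the 4 motifs. Which genes these exons belong to was not recorded. Aurka overlaps Cstf1, Fam210b and Gm75386 on the opposite strand.

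Over the same 250 bases, CCAAT occurred in 54.4% of the 285 higher genes with a window, in 40.7% of the 135 lower genes, in 36.9% of the 7309 genes compared and in 36.5% of all 21770 protein-coding windows. At least 2 CCAAT matches were found in 28.4% of the higher and 12.8% of the compared genes. TTTGAA occurred in 24.6%, 8.15%, 11.8% and 15.6% of the same 4 sets, and TTTAAA in 18.9%, 8.15%, 10.3% and 11.9%. TTCGAA was rare, at 2.46% of the higher and 2.07% of the compared genes. TTCGAA and TTTAAA read the same on both strands. A match is a description of the letters and not a measured binding site.

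The regulators of mitotic entry and exit stood higher in members as a group. Of the 24 genes of the list, 22 had at least 20 CPM and each of these 22 was at least 1.5-fold higher, with a median log2 fold of 1.86 against -0.02 over all genes compared. The limit of 20 CPM was taken over all cells, so that 7 of the 22 passed it through the cells in which they were high and had under 20 CPM in low-score cells. Of the 16 listed genes with at least 20 CPM in low-score cells, 15 were at least 1.5-fold higher. Plk1 (chr7:121758646-121769108), the kinase that drives entry into mitosis and centrosome maturation, stood at 198 CPM in members and 17.7 in low-score cells, a ratio of 11.2 (8.95 to 14.2). Ccnb1 (chr13:100915153-100923116), the B-type cyclin that activates Cdk1, stood at 277 and 32.7 CPM, a ratio of 8.48 (7.14 to 10.1). Both were higher within all 32 BC1 sequences. Aurka, the centrosomal Aurora kinase, had a ratio of 11.2, and Ccnf, the F-box protein cyclin F, a ratio of 10.6. Reads of Aurka and of Cstf1 on the opposite strand could not be told apart if counting ignored strand, which the sources used here do not give.

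Other genes of the list covered the control of Cdk1 and the APC/C. Ccna2, the cyclin that is present from S phase until early mitosis, had a log2 fold of 2.07 (365 against 82.9 CPM). Cdc20, the activator that starts the APC/C in metaphase, had a log2 fold of 1.97 (288 against 69.9 CPM), and it overlaps Elovl1 on the opposite strand. The phosphatases Cdc25b and Cdc25c, which remove the inhibitory phosphates from Cdk1, had log2 folds of 2.23 and 2.16. Wee1, the kinase that adds such a phosphate, was also higher, with 0.93. The smallest fold of the 22 was that of Cks1b, a Cdk-binding subunit, with 0.90. The 2 genes below 20 CPM were Pkmyt1, another inhibitory kinase (a ratio of 0.703), and Ube2s, a partner of the APC/C (11.6 against 8.74 CPM).

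Spindle and cytokinesis genes had the largest ratio of the lists outside the score. Of 30 genes, 29 had at least 20 CPM and 28 of these were at least 1.5-fold higher, with a median log2 fold of 2.14. Summed, they took 8222 CPM in members, 4740.5 in middle cells and 1709 in low-score cells, a ratio of 4.81 (4.69 to 4.94). The kinesins of the midzone and furrow differed in size. Kif14, which recruits citron kinase, had a log2 fold of 3.01, Kif23 of the centralspindlin complex 2.65 and Kif20a 1.87, and Kif20b stood at 494 against 71.7 CPM. Kif2c, which depolymerizes microtubules at kinetochores, had 2.77, and Ckap2l, a spindle-associated protein, 2.85. Anln, the actin-binding anillin of the cleavage furrow, had 1.88 and was well expressed in low-score cells as well (840.4 against 224 CPM). Stmn1, a microtubule-destabilizing protein with roles outside mitosis, was the exception at 0.25. Sapcd2 was below 20 CPM, with 57.0 CPM in members and 3.72 in low-score cells.

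Among kinetochore and checkpoint genes the 1.5-fold count was 24 of the 29 with at least 20 CPM, out of 30 listed, and the median log2 fold was 1.44. Genes of cohesion protection and the outer kinetochore lay high. Sgo2a, a shugoshin that protects cohesion at centromeres, had a log2 fold of 2.47, and Spc25 of the NDC80 complex 2.33. Ndc80 itself had 2.00 (221 against 51.5 CPM), Bub1b, the checkpoint protein BubR1, 1.68, and Cenpa, the centromeric histone H3 variant, 1.57. The 5 genes between the thresholds were Mad2l1 (0.58), Cenpw (0.41), Cenpu (0.36), Cenpm (0.35) and Cenpk (0.23). Inner kinetochore genes lay on both sides of the threshold, since Cenpi (1.30), Cenpq (1.11), Cenpn (0.80) and Cenpp (0.67) were among the 24. These genes were named after their values were seen. Oip5, which overlaps the score gene Nusap1 on the opposite strand, was below 20 CPM.

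**Figure D2:**
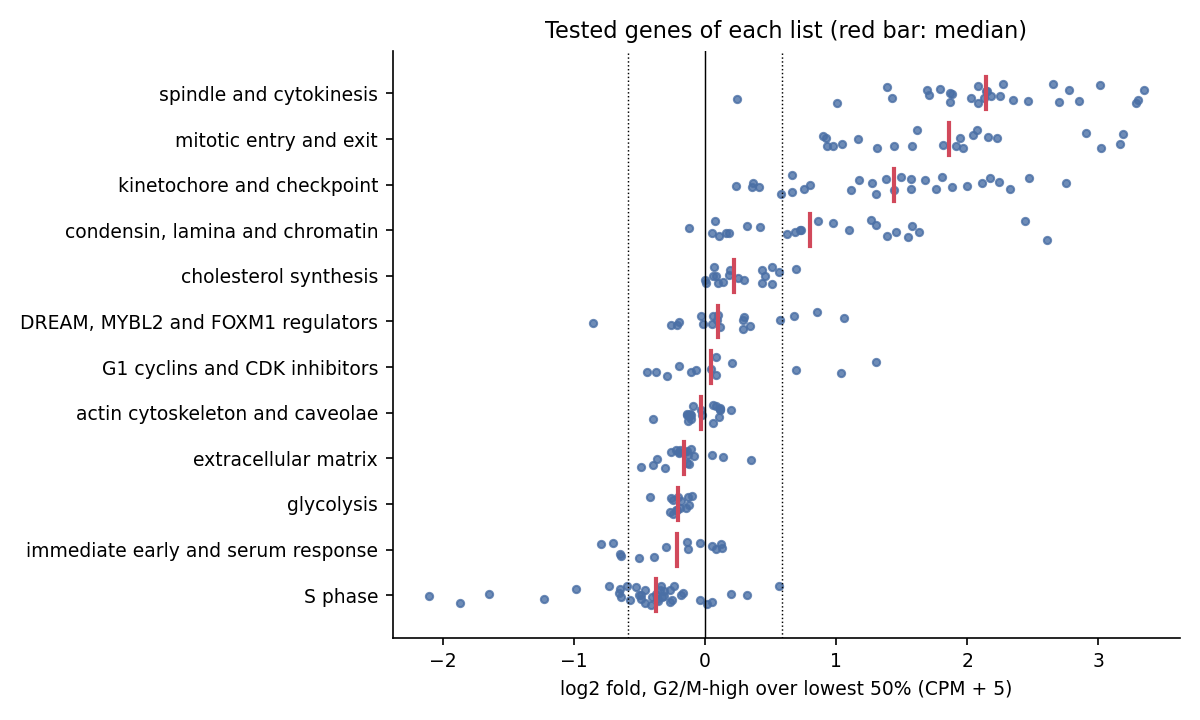
Log2 fold (G2/M-high over lowest 50% of NIH/3T3 cells, CPM plus 5) of each gene with at least 20 CPM, by list, with red bars at the medians, a solid line at 0 and dotted lines at 1.5-fold. The spindle, mitotic entry and kinetochore medians lie between 1.44 and 2.14, and the S phase median lies at -0.38.

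The 84 genes of these 3 lists together, none of them part of the score, took 15919.5 CPM in members, 9693 in middle cells and 4065 in low-score cells, a ratio of 3.92 (3.85 to 3.99). Of the 80 with at least 20 CPM, 74 were at least 1.5-fold higher and 0 were lower, but 13 of the 80 had under 20 CPM in low-score cells and passed only through the other cells. With no limit on the level, 76 of the 84 were at least 1.5-fold higher, and with 20 CPM required in low-score cells, 61 of 68. In single cells, they made up a median of 1.59% of UMIs in members (quartiles 1.39% and 1.79%), 0.933% in middle cells and 0.383% in low-score cells (quartiles 0.255% and 0.528%), so the quartile ranges of members and low-score cells did not overlap. The ratio was 3.92 without the 5% of cells with the most UMIs and 3.60 when every cell was scored at 2000 UMIs, and the S phase ratio given further on was 0.787 and 0.804.

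Chromosome structure genes formed another, weaker group. Of the 24 condensin, lamina and chromatin genes, which were all above 20 CPM, 16 were at least 1.5-fold higher, and the list stood at 8099 CPM in members and 4788 in low-score cells, a ratio of 1.69 (1.66 to 1.73). Of the 22 with at least 20 CPM in low-score cells, which leaves out Espl1 and H2ax, 14 were at least 1.5-fold higher. Kpna2, an importin that carries proteins into the nucleus, had a log2 fold of 2.61, and Espl1, the separase that cuts cohesin at anaphase, 2.44. The condensin subunits were divided. Those shared by both complexes, Smc2 and Smc4, had 1.38 and 1.58, and the condensin I subunits Ncaph, Ncapg and Ncapd2 had 1.63, 1.55 and 0.98. The condensin II subunits Ncaph2, Ncapd3 and Ncapg2 had 0.32, 0.08 and -0.12, all short of 1.5-fold. Among chromatin proteins, Hmgb2 had 1.46 and the linker histone gene H1f0 1.30, whereas the related Hmgb1 had 0.16 and the histone variant gene H2az1 0.10. Lamin B1 (Lmnb1) had 1.10. The split of condensin I from condensin II was noticed after the values were seen.

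The S phase genes were lower in members, although less strongly. Of 40 genes, 39 had at least 20 CPM, 34 of these lay below 0 and 10 were at least 1.5-fold lower, with a median log2 fold of -0.38. The list took 4359 CPM in members, 5693 in middle cells and 5597 in low-score cells, a ratio of 0.779 (0.760 to 0.798) between members and low-score cells. Genes of the G1/S boundary stood at the bottom of all genes compared. Ccne1 (chr7:37797404-37808264), cyclin E1, stood at 5.80 CPM in members (11 UMIs), 24.4 in middle cells and 41.6 in low-score cells (224 UMIs), a ratio of 0.139 (0.0686 to 0.254). Ccne2, cyclin E2, stood at 16.9, 45.8 and 75.1 CPM, and Cdc6, which loads the MCM helicase at origins, at 23.7, 57.4 and 84.9 CPM. Chaf1b, a subunit of the histone chaperone CAF-1, had a log2 fold of -1.23. Ccne1, Ccne2 and Cdc6 were lower in members within 31, 30 and 32 of the 32 BC1 sequences. Ccne2 overlaps Ints8 on the opposite strand.

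Other genes of replication were closer to equality. Uhrf1, which recruits the maintenance DNA methyltransferase, had a log2 fold of -0.99, Pcna, the sliding clamp of the polymerases, -0.73 (176 against 296 CPM), and Gins2 of the replicative helicase -0.66. The helicase subunits Mcm2 to Mcm7 lay between -0.65 (Mcm6) and -0.40 (Mcm7). The nucleotide synthesis genes did not share that direction. Rrm2, the regulated subunit of ribonucleotide reductase, had 0.06 and was higher in members in 16 and lower in 16 of the 32 BC1 sequences. Rrm1 had 0.32, Tyms 0.20 and Usp1, a deubiquitinase of PCNA, 0.57, none of which reached 1.5-fold. Ung, the uracil glycosylase, missed the 20 CPM limit, with 2.11 CPM in members against 31.2 in low-score cells.

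The low-score cells were a mixture that included cells rich in S phase transcripts. Of the 266 cells with the highest share of S phase list UMIs, 2 were G2/M-high cells, 96 were middle cells and 168 were low-score cells. They made up 0.752% of the G2/M-high cells, 15.4% of the middle cells and 18.9% of the low-score cells. Over the 10 deciles of the score, the S phase list stood at 3805 CPM in the first, reached 6435 in the fifth and stood at 4325 in the tenth. The 84 G2/M genes stood at 1913 CPM in the first decile and at 16379.5 in the tenth and were higher at each step. Single genes were staggered. Ccna2 stood at 15.5 CPM in the first and 104 in the fourth decile, where Ccnb1 was at 44.9 and Plk1 at 17.4, and Ccne1 had its highest value there (49.5 CPM). In the tenth decile Ccna2, Ccnb1 and Plk1 stood at 376, 284 and 215 CPM and Ccne1 at 7.17. The deciles order cells by the score and not by time.

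**Figure D3:**
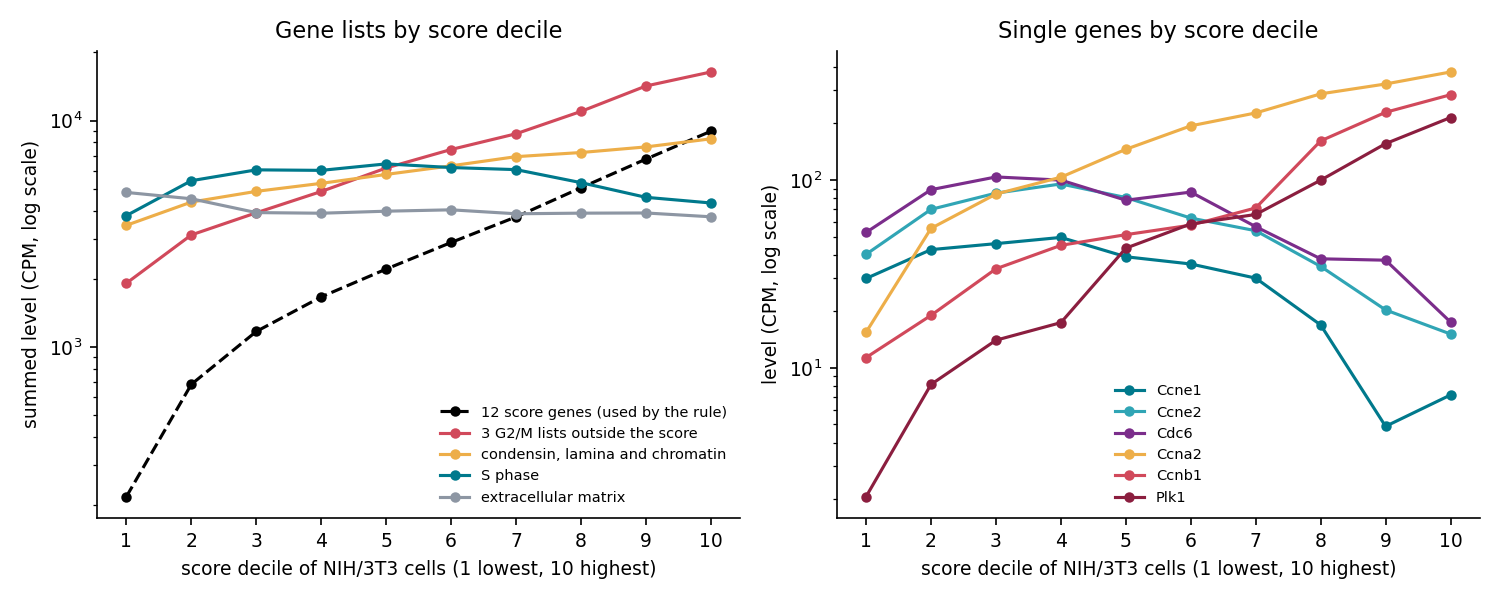
Summed level of gene lists (left) and level of single genes (right), in CPM on log scales, over the 10 deciles of the score in NIH/3T3 cells. The G2/M lists are highest, at 16379.5 CPM in the tenth decile, whereas the S phase list is highest in the fifth (6435 CPM) and Ccne1, Ccne2 and Cdc6 are low in the last deciles.

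Within the members, the summed G2/M genes were higher with the score, and most single genes named here had overlapping counting intervals. When the 266 cells were divided into a lower, a middle and an upper part by score (88, 89 and 89 cells), the 84 G2/M genes stood at 15011, 15880.1 and 16915 CPM, and the S phase list at 4418, 4450.5 and 4198 CPM. Aspm stood at 505, 548 and 655 CPM. Ccnb2, the other B-type cyclin of the list, stood at 37.7, 56.8 and 69.1 CPM from 24, 37 and 42 UMIs. Ccna2 stood at 344, 390.2 and 359 CPM, Ccnf at 159, 157 and 138, and Cdc20 at 293, 263 and 308, with counting intervals that overlapped between all parts for each gene. Prr11 stood at 204, 186 and 183 CPM, likewise with overlap (170.5 to 242 and 150.3 to 220.1 for the outer parts).

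The genes that control these programmes differed less. Of 21 genes of the DREAM, MYBL2 and FOXM1 list, 19 had at least 20 CPM, 3 were at least 1.5-fold higher and 1 lower, with a median log2 fold of 0.10. Foxm1, the forkhead factor of G2/M transcription, stood at 39.6 CPM in members and 16.4 in low-score cells, a ratio of 2.42 (1.75 to 3.33). Foxm1 passed the limit of 20 CPM through the other cells, and of the 18 genes with that level in low-score cells 2 were at least 1.5-fold higher. The pocket protein genes Rbl1 and Rbl2 had log2 folds of 0.85 and 0.68, and E2f1, an activator of G1/S genes, -0.85. Mybl2 stood at 25.3 and 29.7 CPM, a ratio of 0.852 whose interval (0.603 to 1.18) includes equality, and Lin9, a core subunit of MuvB, had a log2 fold of 0.57, just short of 1.5-fold. The genes of NF-Y, which binds CCAAT, had -0.03 (Nfya), 0.06 (Nfyb) and 0.29 (Nfyc).

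The G1 list held genes on both sides of equality. Of 20 genes of the list 13 had at least 20 CPM, of which 3 were at least 1.5-fold higher and 0 lower. Ccnd1, cyclin D1, stood at 594 CPM in members and 622 in low-score cells, a ratio of 0.954 (0.891 to 1.02). Ccnd3, cyclin D3, was lower, with a ratio of 0.698 (0.494 to 0.969), and Ccnd2 had a ratio of 1.06 (0.967 to 1.16). Cdkn1b, which encodes the inhibitor p27, stood at 77.0 and 34.9 CPM, a ratio of 2.20 (1.76 to 2.75). Cdkn2c, which encodes p18, had a log2 fold of 1.30, and Gas1, a growth arrest gene, 0.69. Cdkn1a, which encodes p21 and is a target of p53, had -0.20, with an interval of the ratio (0.735 to 1.01) that includes equality. Cdkn2d, which encodes p19, was below the 20 CPM limit over all cells but stood at 44.8 CPM in members against 3.72 in low-score cells. The other 6 below it were Cdkn1c, Cdkn2a, Cdkn2b, Ccng2, Btg2 and Trp53inp1, and Cdkn1c and Cdkn2b had no UMI in either group.

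Of the 12 genes with the smallest fold, 8 lay outside the S phase list. Fry, a cytoskeletal scaffold gene, stood at 43.3 CPM in members and 120.4 in low-score cells, and Ptgs2, the inducible cyclooxygenase, at 35.9 and 98.1 CPM. Dscc1, a cohesion factor of the replication fork, Wdr76, and Plk3, a stress-responsive relative of Plk1, had log2 folds of -1.23, -1.11 and -1.02. Gm12905 (10.6 against 29.7 CPM) and 3300002A11Rik (11.1 against 27.1 CPM) overlap Mycbp, Rragc or Foxn3 on the opposite strand and are uncertain for that reason. Fry overlaps other genes on both strands. Ptgs2 overlaps Ptgs2os, Dscc1 Gm41325, Wdr76 Frmd5 and Plk3 Dynlt4 on the opposite strand, so the same uncertainty holds for these genes. Of these 8 genes, Fry and Ptgs2 were lower in members in 30 of 32 BC1 sequences and 3300002A11Rik in 25.

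Some growth-response genes were lower in members, while the matrix and actin lists were closer to equality. Of 20 immediate early and serum response genes, 14 had at least 20 CPM and 4 of these were at least 1.5-fold lower, among them Ier3 (-0.79), Junb (-0.70) and Jun (-0.65). The list stood at 919 and 1136 CPM, a ratio of 0.809 (0.767 to 0.853), and was higher in members in 4 of 32 BC1 sequences. Egr1 had -0.51 and Myc -0.30. Fos was below 20 CPM (9.50 against 14.3 CPM), as were Fosb, Atf3, Srf, Ccn2 and Zfp36. No gene of the extracellular matrix list (19 of 26 above 20 CPM) or of the actin and caveolae list (19 of 23) reached 1.5-fold in either direction. The matrix list had a ratio of 0.914 (0.890 to 0.938), with 16 of 19 genes below 0. The actin and caveolae list had one of 0.953 (0.936 to 0.970), with 11 of 19 below 0. Col1a2, Fn1 and Sparc, which encode collagen, fibronectin and osteonectin, had log2 folds of -0.08, -0.26 and -0.10, and Actb and Cav1 -0.09 and -0.39.

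The markers of the fibroblast line took a like share of UMIs in members and low-score cells as a sum, but single markers differed in both directions. The 8 NIH/3T3 marker genes took 3015 CPM in members and 3029 in low-score cells, a ratio of 0.995 (0.966 to 1.03). Il1rl1, an interleukin receptor gene, had a ratio of 1.49 (771 against 516 CPM) and Prrx1, a mesenchymal homeobox gene, one of 1.16 (1.09 to 1.24). Sema5a had 0.743 (0.701 to 0.788) and Cav1, the caveolin gene, 0.756 (0.673 to 0.848). The 8 N2a markers summed to 7.91 CPM in members and 7.25 in low-score cells, and the 9 mESC markers to 23.2 and 18.4 CPM. The most abundant of each set was Gm30835 and Dppa5a, and Dbh, Isl1 and Pou5f1 had no UMI in either group, where 3 UMIs would have been 1.58 CPM in members. Of the actin list, the smooth muscle genes Tagln, Acta2, Myl9 and Cnn1 were at or near 0, with 1 UMI of Tagln in each group.

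Housekeeping and metabolic lists were near equality, most of them a little lower. Of 19 cholesterol synthesis genes 18 had at least 20 CPM and 17 of these lay above 0, but only Mvk, the mevalonate kinase, reached 1.5-fold (0.69). The list took 2986 CPM in members and 2443 in low-score cells, a ratio of 1.22 (1.18 to 1.26). Sqle, the squalene epoxidase, had a log2 fold of 0.46. All 14 glycolysis genes above 20 CPM, of 15 listed, lay below 0, with a list ratio of 0.857 (0.835 to 0.879) and log2 folds of -0.26 for Gapdh, -0.21 for Pkm and -0.27 for Ldha. The ribosomal protein genes had a ratio of 0.867, with 86 of 88 below 0, and the 13 mitochondrially encoded genes one of 0.983. Since CPM are shares of a total, a higher share of one group of genes lowers the others. How much of these ratios that accounts for was not tested. Leaving both of the last lists out of the total gave 299 genes higher and 194 lower. A block of 7 neighbouring genes on chromosome 14 that runs from Gpc6 to Uggt2, of which 3 had at least 20 CPM, had a ratio of 0.929 with an interval (0.813 to 1.06) that includes equality.

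Barcodes with under 100 UMIs may hold free RNA, and also fragments of cells or barcode errors, which cannot be told apart here. In these 164757 barcodes of the NIH/3T3 matrix, the 12 score genes took 3772 CPM, between members and low-score cells, the 84 G2/M genes 7645 CPM and the S phase list 5384 CPM. The N2a and mESC markers took 60.3 and 97.1 CPM there. Barcodes far below the limit for cells thus carried mitotic transcripts, and the part of free RNA in the levels of low-score cells was not tested. At 2000 UMIs per cell, Aspm had a UMI in 65.0% of members and 9.02% of low-score cells and Plk1 in 33.1% and 3.49%, while Dppa5a, which fibroblasts should lack, had one in 4.51% and 2.48%. Without thinning, Aspm had a UMI in 91.7% and 21.5% and Dppa5a in 10.5% and 5.64%.

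The excess of G2/M genes was seen in each of the BC1 sequences of the line. The 32 BC1 sequences, which divide 1 culture and are not independent cultures, held 3 to 15 members each (median 8), or 5.26% to 22.1% of their cells (median 14.3%). The 84 G2/M genes took between 10942 and 17655.5 CPM in the members of a BC1 sequence (median 15732) and between 3305 and 4798 in its low-score cells (median 4072), so that the ranges did not overlap. The lowest of the member values came from a BC1 sequence with 3 members. The S phase list was lower in members in 31 of 32, the condensin, lamina and chromatin list higher in 32 of 32 and the extracellular matrix list higher in 7 of 32.

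**Figure D4:**
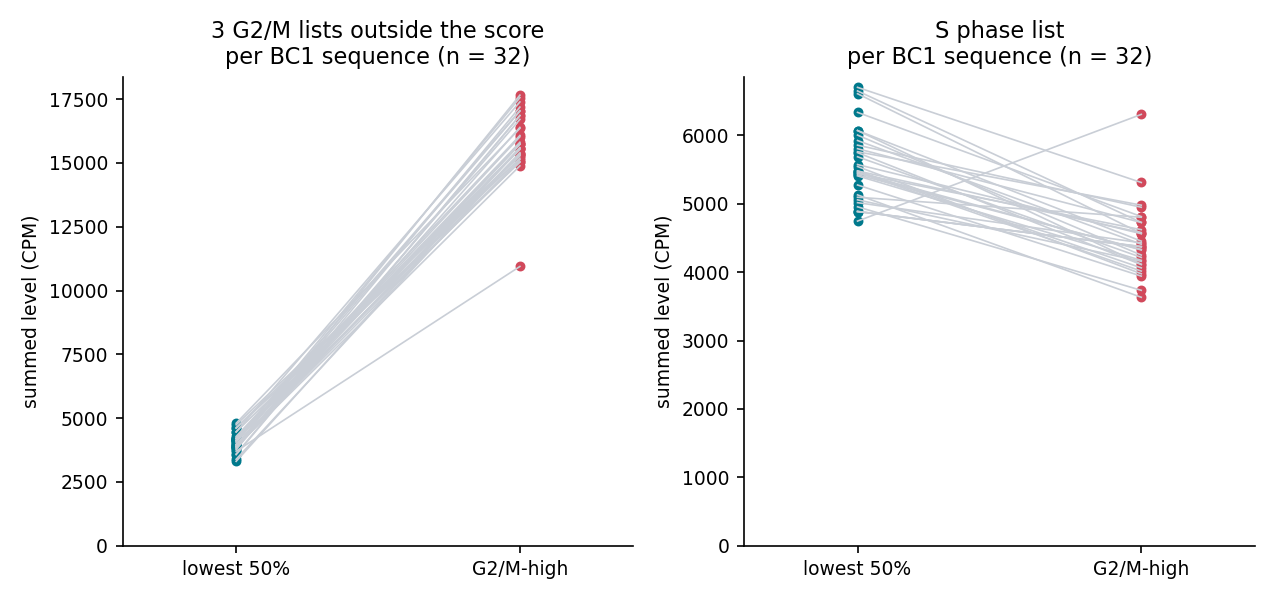
Summed level in CPM of the 84 G2/M genes (left) and of the S phase list (right) in the lowest 50% and the G2/M-high cells of each of the 32 BC1 sequences, joined by lines. The G2/M values of members, 10942 to 17655.5 CPM, all lie above those of low-score cells, and the S phase line points down in 31 of 32.

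The same rule was applied to the other 2 lines to set the NIH/3T3 values in context. The score genes were 6.86 times higher in the highest 15% than in the lowest 50% of NIH/3T3 cells, 5.35 times higher in N2a (310 against 1035 cells) and 2.89 times higher in mESCs (279 against 930 cells). The 84 G2/M genes outside the score had a ratio of 3.92 in NIH/3T3, 2.38 (2.34 to 2.42) in N2a and 1.68 (1.65 to 1.70) in mESCs. At least 1.5-fold higher were 226 (3.03%) of 7468 genes in N2a and 100 (1.38%) of 7253 in mESCs, and of the 84 genes 63 of 75 and 46 of 82 with at least 20 CPM. At least 1.5-fold lower were 89 (1.19%) in N2a and 57 (0.786%) in mESCs. The limit of 20 CPM was taken over all cells of a line, so genes could pass it through the high-score cells. Counts with 20 CPM required in low-score cells are given for NIH/3T3 alone. The low-score cells differed as well. They took 4065 CPM of the 84 genes in NIH/3T3, 4095 in N2a and 7916 in mESCs. Each of the 3 lines was 1 sample of a pooled experiment, so no difference between them could be tested.

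**Figure D5:**
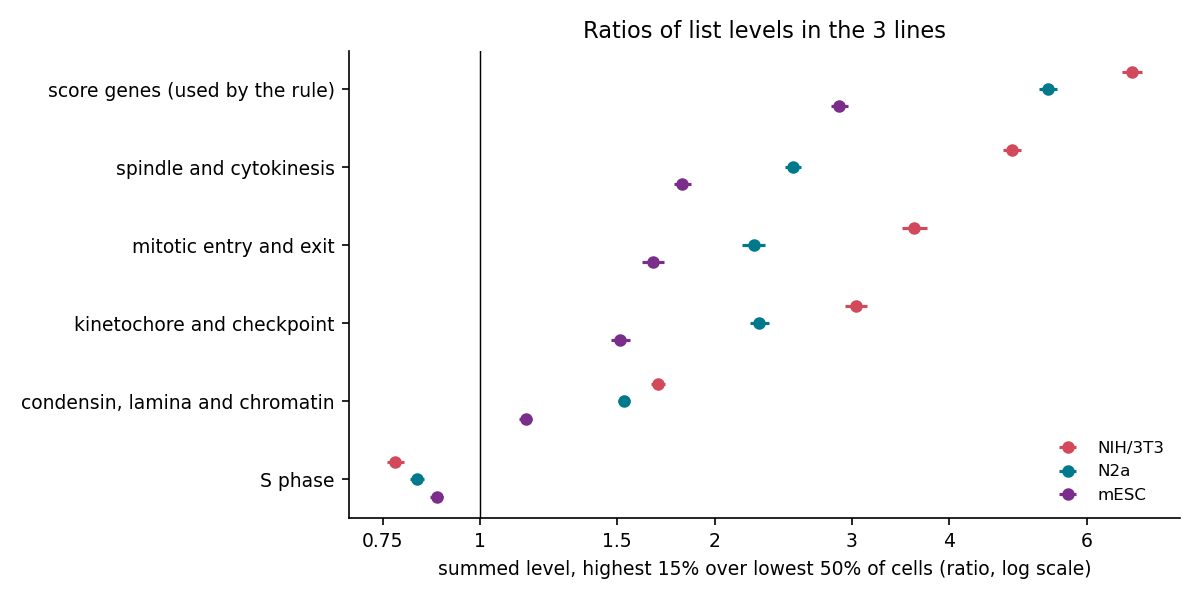
Ratio of summed levels, highest 15% over lowest 50% of cells by the same score, for 6 gene lists in NIH/3T3, N2a and mESC cells, on a log scale with 95% counting intervals. The NIH/3T3 ratios lie farthest from 1 in every list shown, from 6.86 for the score genes, which the rule used, to 0.779 for S phase.

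Single genes differed between the lines to various degrees. Aspm stood at 568 against 51.3 CPM in NIH/3T3, 316 against 62.4 in N2a and 297 against 119 in mESCs. Cdc6 had log2 folds of -1.65, -1.68 and -0.55 in the same order, close to each other in the first pair. Ccne1 had -2.11, -0.55 and -0.37, with levels in the high-score cells of 5.80, 27.4 and 101 CPM. Hmgb2 had 1.46, 0.97 and 0.28, and its level in low-score mESCs was 1385 CPM. Pcna had -0.73, -0.21 and -0.34. None of these differences between lines was tested.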

How the data were processed

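Single-cell RNA of 3 mouse lines was measured with CapSeq. The lines were pooled after the BC1 round, with 1 sample per line, and the NIH/3T3 matrix was the main one used. The deposited values are UMI counts per gene and barcode, which the authors made with STARsolo on GRCm39 after demultiplexing the lines by their BC1 sequences (the matrix of the mixed lines served only as an alternative). Whether intronic UMIs were counted and which strand was used is not given in the sources used here, so genes with an overlapping partner, and genes with close copies elsewhere in the genome, are uncertain.

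The matrix held 13505027 UMIs over 33565 genes and listed 884736 barcodes. Barcodes under 2000 UMIs, or with over 20% of UMIs from mitochondrial genes, were left out, and doublets were not called. UMIs were summed per group and scaled to CPM. Fold changes were log2 of (CPM + 5) ratios for genes with at least 20 CPM over all passing cells, and ratios carry exact conditional binomial 95% intervals, which cover counting error only. With a single sample for each line no test was possible, and a gene was called at 1.5-fold. The counting limit for 0 was set at 3 UMIs.

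The members and gene lists were chosen with earlier results of these data known. Genes named were the 12 score genes, the 12 largest and 12 smallest folds and the first 3 genes of each list, and other list genes were named after their values were seen. A few genes that the rule or lists name are not reported here. Gene positions come from GENCODE M39, which held 32953 of the 33565 IDs, and upstream sequence from GRCm39 at Ensembl canonical starts. Alternatives varied the cell limits, the share taken, the scoring genes, depth, pseudocount and filters. Computation used scipy 1.17.1 and numpy 2.4.6 under Python 3.11.15, with tables in pandas 2.3.3 and plots in matplotlib 3.10.9.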

Additional observations from a re-analysis of the deposited data

How the results depend on the processing

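The ratio of the 84 G2/M genes between members and low-score cells, 3.92, lay between 3.60 and 5.67 under the alternatives. It was 4.03 with the highest 10% of cells as members, 3.76 with the highest 20%, 5.67 against the lowest 25%, 3.60 after scoring at 2000 UMIs, 3.83 with separate UMIs for scoring and measuring, 3.79 with the first 6 score genes and 3.62 with the last 6. The S phase ratio, 0.779, was 0.883 against the lowest 25%, 0.804 after scoring at 2000 UMIs and 0.804 as a mean over cells, and stayed below 1 in each. The ratio of UMIs per cell, 1.14, was 1.22 with a minimum of 1000 UMIs, 1.08 without the 5% of cells with the most UMIs and 1.04 with the last 6 score genes, its lowest value. The 293 higher and 148 lower genes became 178 and 63 at a 50 CPM filter, 143 and 11 at 2-fold, and the lower ones 226 with separate UMIs. Over the 18 alternatives run for it, the higher count lay between 143 and 396. The 12 largest and 12 smallest folds kept their direction in the 15 alternatives run for them, and, of the lists recomputed, which leave out the N2a and mESC markers, those that crossed 1 were the chromosome 14 block (0.863 to 1.06), the mitochondrially encoded genes (0.914 to 1.01) and the NIH/3T3 markers (0.945 to 1.02). Scoring at 2000 UMIs kept 79.3% of the members. No pairing across cultures was possible because the labels carry no replicate numbers and each line was 1 sample. Members and low-score cells were set side by side only within BC1 sequences, which divide 1 culture. Counts of a few UMIs, as for Ccne1 in members, limit single genes, and counting error leaves out the spread between cultures.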
